A study of Mus musculus with 163 samples.

Results

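Transmitter genes were compared between *Slc17a6*-positive and *Slc17a6*-negative neurons among *Pomc*-EGFP cells with low *Agrp*. A cell was *Slc17a6*-positive at 5 RPM (reads per M mapped reads) or more, which is 2.32 on the log2RPM scale, and *Slc17a6*-negative below it. Of the neurons with *Agrp* below 10 log2RPM, 73 were *Slc17a6*-positive (63.5%, exact Clopper-Pearson 95% interval 53.99% to 72.3%) and 42 were *Slc17a6*-negative. The other 48 neurons of the series, with *Agrp* at or above 10 log2RPM, are called *Agrp*-high and are used only for reference. The cells of both groups were chosen by their measured *Slc17a6* and *Agrp*, so the values of these genes are a description, and all other genes are described as they lie on either side of that limit.

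All cells came from male C57/BL6 Tg(Pomc-EGFP)1Low mice, which were 7 to 9 weeks old and fed ad libitum. Single GFP-positive cells were sorted by flow cytometry from dissociated mediobasal hypothalamus, and each gave 1 full-length cDNA library (SMART-Seq v4). The GFP is driven by *Pomc* regulatory sequences of a transgene, so a sorted cell need not hold much *Pomc* mRNA when it is collected. The labels tie no cell to an animal, a plate or a batch, and all cells therefore make up 1 sample. Each SD is the spread from cell to cell, tests were not run, and intervals cover counting error only. Beside a count of 0, the upper limit given is the share that 3 counts would make. A gene is called higher or lower where the mean log2RPM of *Slc17a6*-positive cells lies at least 1 above or below that of *Slc17a6*-negative cells, and expressed in a cell at 5 RPM or more. The lowest value in every cell, -0.91 log2RPM (0.532 RPM), stands for 0 reads.

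Neurons that release glutamate load it into synaptic vesicles with a vesicular glutamate transporter, and VGLUT2, the product of *Slc17a6*, is the usual form in the hypothalamus. GABA is made from glutamate by the decarboxylases GAD67 (*Gad1*) and GAD65 (*Gad2*), and it is loaded into vesicles by VGAT (*Slc32a1*). POMC neurons of the arcuate nucleus, which restrain feeding through melanocortin peptides, are known to include glutamatergic and GABAergic cells, whereas neighbouring AgRP neurons, which drive feeding, are GABAergic.

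*Slc17a6* (ENSMUSG00000030500, chr7:51621830-51671125, GRCm38) ranged from 5.06 to 1869 RPM in *Slc17a6*-positive cells, with a median of 221 RPM. In *Slc17a6*-negative cells it ranged from 0.532 to 4.94 RPM, with a median of 1.27 RPM. The cells nearest the limit held 5.06, 5.18 and 6.47 RPM on the upper side and 3.86, 4.66 and 4.94 RPM on the lower side. Most positive cells lay far from it, since 48 of the 73 held 100 RPM or more, 12 held 20 to 100 RPM and 13 held 5 to 20 RPM. Among *Agrp*-high cells, set beside them for reference, 13 of 48 (27.1%, interval 15.3% to 41.8%) also reached 5 RPM. None of these 13 reached 100 RPM, and all of them bore cell numbers from 1 to 66, so none of the *Agrp*-high cells with higher numbers reached 5 RPM. Of the 13 *Agrp*-low cells with 5 to 20 RPM, 7 also bore numbers from 1 to 66. Whether low *Slc17a6* in either set of cells is background was not tested. Median depths were 8.09 M reads in *Slc17a6*-positive, 7.97 M in *Slc17a6*-negative and 8.45 M in *Agrp*-high cells, and the smallest library held 1.46 M reads.

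The share of *Slc17a6*-positive cells differed with the number in the cell's name, for which the labels give no meaning. It was 25 of 34 (73.5%) for cells 1 to 66, 19 of 27 (70.4%) for cells 67 to 98 and 29 of 54 (53.7%) from cell 99 up. *Slc17a6*-positive cells held 6892 ± 845 expressed genes and *Slc17a6*-negative cells 6445 ± 927 (SD, n = 73 and 42 cells). These differences in gene number and cell number accompany all results below, and their part in them was not tested, beyond the values given within each range of cell numbers.

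Of the 42 *Slc17a6*-negative cells, 8 stood apart from all others by their immediate early genes, which neurons and other cells transcribe within minutes of stimulation. Their mean over 16 such genes lay between 8.41 and 10.56 log2RPM, whereas it reached at most 3.99 in *Slc17a6*-positive cells and 3.87 in the other 34 *Slc17a6*-negative cells. All 8 bore numbers from 99 up, and they held fewer expressed genes (4603 to 5984). The sum of the measured pituitary markers (4 of 8 listed, among them *Prl*, *Pou1f1* and *Tbx19*) was 345 to 17789.8 RPM in them, against 2.37 to 309 RPM in *Slc17a6*-positive cells. *Tbx19*, a transcription factor of pituitary POMC cells, was expressed in 5 of the 8, and *Pou1f1* and *Prl*, genes of other pituitary cells, in 6 of the 8 each. These markers were not limited to the 8. *Tbx19*, *Pou1f1* and *Prl* were expressed in 3, 11 and 9 of 73 *Slc17a6*-positive cells. In the other 34 *Slc17a6*-negative cells they were expressed in 3, 6 and 6. The neuronal growth protein *Stmn2* had 2.37 to 8.01 log2RPM in the 8 cells. Its mean was 9.61 ± 1.26 in *Slc17a6*-positive cells and 9.36 ± 0.77 in the other *Slc17a6*-negative cells. Low *Stmn2* was not limited to the 8, since it ranged from 4.72 to 11.29 log2RPM in *Slc17a6*-positive cells. The lowest values there were 4.72, 5.06, 5.26 and 5.27, all in cells with 5 to 20 RPM of *Slc17a6*. These *Slc17a6*-positive cells were kept in the values without the 8. *Pomc* was 8.43 to 16.06 log2RPM in the 8 cells. What these cells are was not tested, and the results below are given with all 42 *Slc17a6*-negative cells and with the 34 that remain without these 8. All 8 held under 5 RPM of *Slc17a6*, so values of *Slc17a6*-positive cells are the same either way.

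Markers of glia were present in some cells of both groups. At least 1 marker reached 50 RPM in 33 of 73 *Slc17a6*-positive and 16 of 42 *Slc17a6*-negative cells for oligodendrocytes, in 17 and 6 for tanycytes and ependymal cells, in 7 and 0 for astrocytes and in 5 and 0 for oligodendrocyte precursors. The sum of 4 measured oligodendrocyte markers had a median of 51.2 RPM and a highest value of 138503 RPM in *Slc17a6*-positive cells, against 39.1 and 322 RPM in *Slc17a6*-negative cells. At least 3 of these markers reached 50 RPM in 2 *Slc17a6*-positive cells and in 0 *Slc17a6*-negative cells. The highest sums were 1035 and 43.9 RPM for 2 measured astrocyte markers and 4728 and 33.2 RPM for 2 measured precursor markers, and the part of these markers in the results was not tested beyond leaving out cells with at least 3 of them. Of 6 listed markers each of microglia and of endothelial and mural cells, 0 were measured. As to the label of the cells as neurons, all cells of both groups expressed *Stmn2*, and the neuronal tubulin *Tubb3* was expressed in 73 of 73 *Slc17a6*-positive and 39 of 42 *Slc17a6*-negative cells, the 3 without it being among the 8.

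VGAT mRNA separated the groups most clearly among the transmitter genes. *Slc32a1* (ENSMUSG00000037771, chr2:158610767-158615748) ranged from -0.91 to 6.55 log2RPM in *Slc17a6*-positive cells with a median of -0.64, and from -0.91 to 5.77 in *Slc17a6*-negative cells with a median of 2.23. It was expressed in 6 of 73 *Slc17a6*-positive cells (8.22%, interval 3.08% to 17.04%) and in 21 of 42 *Slc17a6*-negative cells (50.0%, 34.2% to 65.8%), or 21 of 34 (61.8%) without the 8 cells. The difference of means was -2.12 (-0.11 ± 1.51 against 2.01 ± 2.35), and -2.79 without the 8 cells. It had the same sign for cells 1 to 66 (-3.22), 67 to 98 (-3.69) and from 99 up (-1.25). After thinning of every cell to 3.7 M reads, *Slc32a1* was found in 5 of 66 *Slc17a6*-positive and 18 of 38 *Slc17a6*-negative cells.

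*Slc32a1* also varied with how much *Slc17a6* a cell held. It was expressed in 7 of 14 cells below 1 RPM of *Slc17a6*, in 14 of 28 at 1 to 5 RPM, in 5 of 13 at 5 to 20 RPM, in 1 of 12 at 20 to 100 RPM and in 0 of 48 at 100 RPM or more, which allows a share of up to 6.25%. Of the 6 cells that expressed both transporters, 5 held 5 to 20 RPM of *Slc17a6*. In the 6 cells *Slc17a6* was 2.37 to 6.37 log2RPM (median 3.10) and *Gad1* was 8.29 to 9.77 log2RPM, against 6.62 to 10.42 in *Slc17a6*-negative cells that expressed *Slc32a1*.

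**Figure D1:**
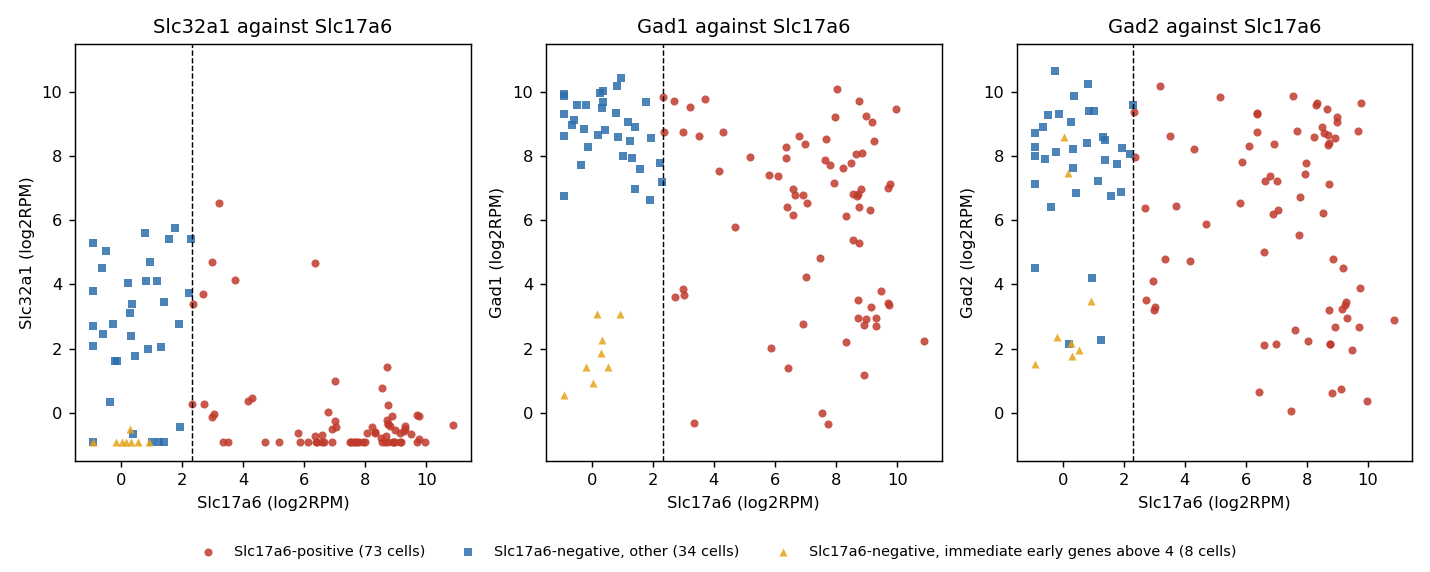
Each point is 1 neuron, with *Slc17a6* (log2RPM) on the horizontal axis and *Slc32a1*, *Gad1* or *Gad2* (log2RPM) on the vertical axis; the dashed line marks 5 RPM. Red circles are 73 *Slc17a6*-positive cells, blue squares 34 *Slc17a6*-negative cells and orange triangles the 8 *Slc17a6*-negative cells with high immediate early genes. No cell at 100 RPM or more of *Slc17a6* expressed *Slc32a1*, while *Gad1* and *Gad2* reached 10.11 and 10.18 log2RPM among *Slc17a6*-positive cells.

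Most cells of both groups expressed the decarboxylases. *Gad1* (ENSMUSG00000070880, chr2:70489940-70602014) was expressed in 65 of 73 *Slc17a6*-positive cells (89.04%, 79.5% to 95.1%) and in 36 of 42 *Slc17a6*-negative cells (85.7%, 71.5% to 94.6%). *Gad2* (chr2:22622205-22693874) was expressed in 62 of 73 and 36 of 42. Of the 34 *Slc17a6*-negative cells without the 8, 34 expressed *Gad1* and 32 *Gad2*. At least 1 decarboxylase was expressed without *Slc32a1* in 66 of 73 *Slc17a6*-positive cells (90.4%, 81.2% to 96.1%) and in 17 of 42 *Slc17a6*-negative cells (40.5%, 25.6% to 56.7%). Only 1 *Slc17a6*-positive cell expressed neither decarboxylase, as did 4 *Slc17a6*-negative cells, all 4 of them among the 8 cells with high immediate early genes.

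The amount of *Gad1* was nevertheless lower beside *Slc17a6*. It ranged from -0.36 to 10.11 log2RPM in *Slc17a6*-positive cells (median 6.81) and from 0.54 to 10.42 in *Slc17a6*-negative cells (median 8.62). Means were 6.10 ± 2.77 and 7.46 ± 2.94, a difference of -1.36, which is smaller than either SD, and the ranges overlapped widely. Without the 8 cells, in which *Gad1* was at most 3.09, *Slc17a6*-negative cells averaged 8.79 ± 1.02 and the difference was -2.69. *Gad1* reached 100 RPM in 40 of 73 *Slc17a6*-positive cells (54.8%), in 33 of 42 *Slc17a6*-negative cells (78.6%) and in 33 of the 34 without the 8. *Gad2* averaged 5.96 ± 2.95 in *Slc17a6*-positive and 6.996 ± 2.67 in *Slc17a6*-negative cells, a difference of -1.04, or -1.82 without the 8. Within cells 1 to 66 and 67 to 98, which hold none of the 8, the *Gad1* difference was -2.43 and -3.34, and from cell 99 up it was -0.32.

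The differences in *Gad1*, *Gad2* and *Slc32a1* also varied with *Pomc*. Below the median *Pomc* of both groups together, *Gad1* averaged 5.89 in 34 *Slc17a6*-positive cells and 8.50 in 23 *Slc17a6*-negative cells (difference -2.61). At or above it, *Gad1* averaged 6.27 in 39 *Slc17a6*-positive and 6.20 in 19 *Slc17a6*-negative cells (difference 0.08), and *Gad2* was 6.88 and 6.45 (difference 0.43). Of these 19 cells 6 were among the 8 with high immediate early genes, and against the remaining 13 the differences were -2.07 for *Gad1* and -1.01 for *Gad2*. *Slc32a1* differed by -2.97 below the median *Pomc* (expressed in 5 of 34 and 15 of 23 cells). At or above the median it differed by -0.95 (1 of 39 and 6 of 19). Without the 8 cells these *Slc32a1* differences were -3.37 and -1.58.

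Other genes of both transmitters differed less. Of 7 measured genes of GABA synthesis and transport, *Gad1*, *Gad2* and *Slc32a1* were lower, with all cells and without the 8. Over all 12186 genes other than *Slc17a6*, 7.38% were at least 1 higher and 1.89% at least 1 lower, or 4.93% and 1.76% without the 8 cells. Within cells 1 to 66, 67 to 98 and from 99 up, which hold fewer cells each, 15.3%, 18.8% and 16.6% were at least 1 higher and 8.35%, 13.4% and 5.1% at least 1 lower. Of 11 measured genes of glutamate supply 2 were higher, the neuronal glutamate transporter *Slc1a1* (difference 1.52) and the aspartate aminotransferase *Got1* (1.09), and none was lower. Neither passed 1 without the 8 cells (0.81 and 0.57).

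Homeobox genes of the Dlx family, which specify GABAergic neurons in the forebrain, were largely limited to *Slc17a6*-negative cells. At least 1 of *Dlx1*, *Dlx2*, *Dlx5* and *Dlx6* was expressed in 6 of 73 *Slc17a6*-positive cells (8.22%, 3.08% to 17.04%) and 22 of 42 *Slc17a6*-negative cells (52.4%, 36.4% to 67.996%), or 22 of 34 without the 8. *Dlx5* (chr6:6877805-6882085) ranged from -0.91 to 6.31 log2RPM with a median of -0.91 in *Slc17a6*-positive cells, and from -0.91 to 7.39 with a median of 0.91 in *Slc17a6*-negative cells. It was expressed in 5 and 19 cells, with a difference of -2.24 (-2.82 without the 8) that held its sign in all 3 ranges of cell numbers (-3.37, -2.73 and -1.54). Below the median *Pomc*, *Dlx5* differed by -3.36 (expressed in 5 of 34 and 16 of 23 cells). At or above the median it differed by -0.70 (0 of 39 and 3 of 19), or by -0.998 without the 8. *Dlx1* was expressed in 2 and 12 cells, *Dlx2* in 2 and 11 and *Dlx6* in 2 and 11. All 6 *Slc17a6*-positive cells with a Dlx gene held 5 to 20 RPM of *Slc17a6*, and none of the 12 cells at 20 to 100 RPM or the 48 above did. Dlx genes and *Slc32a1* were found together in 5 *Slc17a6*-positive and 15 *Slc17a6*-negative cells. In *Agrp*-high cells no Dlx gene was expressed (0 of 48, which allows up to 6.25%), although 23 of 48 expressed *Slc32a1*.

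Of the 6 measured transcription factors listed for GABAergic neurons 4 were lower (*Dlx1*, *Dlx2*, *Dlx5* and *Tcf7l2*), with a list median of -1.25 (-1.501 without the 8 cells) against 0.14 (0.07) over all genes. *Tcf7l2*, an effector of Wnt signalling, was expressed in 34 of 73 *Slc17a6*-positive and 26 of 42 *Slc17a6*-negative cells (difference -1.19, or -1.34 without the 8). Of 16 other hypothalamic transcription factors, 2 were higher and 1 was lower (7.38% and 1.89% over all genes), and without the 8 cells 0 and 1. *Sox3* and *Nkx2-1* differed by 1.22 and 1.11 (0.91 and 0.49 without the 8). *Six6*, a homeobox gene of the developing hypothalamus and pituitary, was the lower one, at 3.54 ± 3.15 against 5.20 ± 2.73 (difference -1.66, or -1.62 without the 8), and by range of cell numbers its difference was -3.16, -0.20 and -1.02.

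Of 24 transcription factors listed for glutamatergic neurons 5 were measured. *Nhlh2*, *Lhx5* and *Sox14* were higher, beside 7.38% of all genes (4.93% without the 8). The list median was 1.61 (1.57 without the 8). *Neurod1* and *Nr4a2* differed by 0.56 and -0.26, or 0.92 and 0.66 without the 8. The list was written with earlier results of these data known. Whether its members mark glutamatergic neurons among these cells was not tested. *Nhlh2* (chr3:102010145-102015492), a helix-loop-helix factor whose loss causes obesity in mice, ranged from -0.91 to 8.70 log2RPM in *Slc17a6*-positive cells (median 0.97) and from -0.91 to 6.21 in *Slc17a6*-negative cells (median -0.13). It was expressed in 33 of 73 and 5 of 42 cells, with a difference of 2.57 (2.40 without the 8). The LIM homeobox gene *Lhx5* (chr5:120431770-120441455) was expressed in 21 of 73 *Slc17a6*-positive and 0 of 42 *Slc17a6*-negative cells, and the SRY-box gene *Sox14* (chr9:99874116-99876170) in 16 of 73 and 0 of 42. A count of 0 of 42 allows a share of up to 7.14%. Their differences were 1.61 and 1.62 (1.57 and 1.61 without the 8), and in each range of cell numbers they lay between 1.35 and 1.92. Within *Slc17a6*-negative cells neither gene passed 1.62 log2RPM.

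These 3 factors overlapped in part among *Slc17a6*-positive cells. At least 1 was expressed in 45 of 73 *Slc17a6*-positive cells (61.6%, 49.5% to 72.8%), in 5 of 42 *Slc17a6*-negative cells (11.9%, 3.98% to 25.6%) and in 0 of 48 *Agrp*-high cells. Among the 73, 28 expressed none, 28 expressed 1, 9 expressed 2 and 8 expressed all 3. *Lhx5* and *Sox14* occurred together in 12 of these cells, *Nhlh2* and *Lhx5* in 12, and *Nhlh2* and *Sox14* in 9. *Pomc* had a median of 13.56 log2RPM in the 33 *Slc17a6*-positive cells with *Nhlh2*, 6.81 in the 21 with *Lhx5* and 7.26 in the 16 with *Sox14*. By *Slc17a6*, at least 1 factor was expressed in 3 of 13 cells at 5 to 20 RPM, 9 of 12 at 20 to 100 RPM and 33 of 48 at 100 RPM or more.

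**Figure D2:**
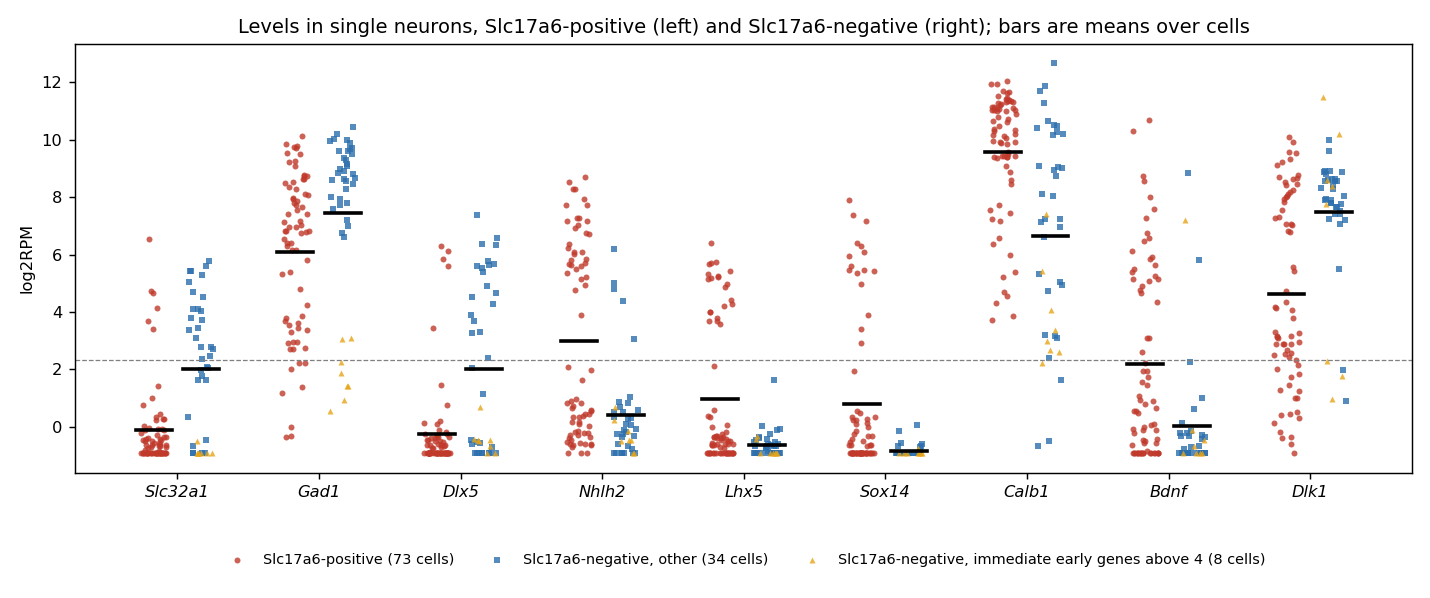
Levels of 9 genes in single neurons (log2RPM), with the 73 *Slc17a6*-positive cells on the left (red) and the *Slc17a6*-negative cells on the right (blue, 34 cells; orange, the 8 with high immediate early genes) of each pair; bars are means over all cells of a side and the dashed line is 5 RPM. *Slc32a1* and *Dlx5* reach the line mainly on the right (6 against 21 and 5 against 19 cells), and *Lhx5* and *Sox14* only on the left (21 and 16 cells against 0).

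*Pomc* itself was not divided by *Slc17a6*. It ranged from 1.01 to 15.49 log2RPM in *Slc17a6*-positive cells (median 8.88) and from 3.33 to 16.06 in *Slc17a6*-negative cells (median 8.09), with means of 9.25 ± 4.05 and 9.16 ± 3.83 and a difference of 0.08. The difference was 0.94 without the 8 cells, and for cells 1 to 66, 67 to 98 and from 99 up it was -0.55, 2.49 and -0.23. *Pomc* of at least 12 log2RPM was seen in 22 of 73 and 12 of 42 cells. The order over *Slc17a6* levels was not even, since cells with 20 to 100 RPM averaged 13.31 log2RPM of *Pomc* and those at 100 RPM or more averaged 8.68. The cocaine- and amphetamine-regulated transcript *Cartpt* differed by 0.47, *Agrp* by 0.46 and *Npy* by 0.39, and without the 8 cells by 0.11, 0.59 and 0.55. None of the 18 measured genes of POMC processing was at least 1 higher or lower, with all cells or without the 8, and the list median was -0.28 (-0.24 without the 8). Over all genes 7.38% were at least 1 higher and 1.89% at least 1 lower (4.93% and 1.76% without the 8). A count of 0 of 18 is near these shares and is not a trait of this list. The granins *Chga* (-0.95) and *Chgb* (-0.77) and the secretory chaperone *Scg5* (-0.69) had the lowest differences among these 18 genes.

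Genes that 50% or more of the cells on the higher side expressed were ranked by their difference, and several membrane proteins were among the 12 with the largest positive values. *Calb1*, the calcium buffer calbindin, ranged from 3.72 to 12.03 log2RPM in *Slc17a6*-positive cells (median 10.20) and from -0.68 to 12.65 in *Slc17a6*-negative cells (median 7.18). Its means were 9.58 ± 2.16 and 6.65 ± 3.56, a difference of 2.92 (2.27 without the 8), and 62 of 73 *Slc17a6*-positive cells lay above the *Slc17a6*-negative median. The aldehyde dehydrogenase *Aldh3b2* was expressed in 44 of 73 and 7 of 42 cells (difference 2.96), and the orphan receptor *Gpr101* in 65 and 20 cells (2.69). *Ddah1*, which breaks down an inhibitor of nitric oxide synthase, differed by 2.59, and the A-type potassium channel *Kcnd2* by 2.57. The others were the guidance protein *Sema5a* (2.56), the synaptic adhesion protein *Slitrk5* (2.52), *Pid1* (2.49), the histamine H1 receptor *Hrh1* (2.48), the protocadherin *Pcdh20* (2.48), *Brinp3* (2.44) and *Fam135b* (2.43). All 12 were chosen for their size over these same cells, so their sign is a description, also within parts of these cells. They kept it without the 8 cells (1.80 to 2.71) and in every range of cell numbers, and reached 1 in 10, 12 and 12 genes for cells 1 to 66, 67 to 98 and from 99 up.

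For some of these genes the difference varied with *Pomc*. Below the median *Pomc*, *Gpr101* differed by 3.15, *Ddah1* by 3.18 and *Kcnd2* by 3.61. At or above it they differed by 1.76, 1.90 and 1.46, and against the 13 *Slc17a6*-negative cells left there without the 8, by -0.52, 0.04 and 0.22. Without the 8 cells, *Aldh3b2* differed by 2.44 below the median and by 2.65 at or above it. *Calb1* differed by 2.77 and 2.80 with all cells, and by 2.82 and 0.69 without the 8. In *Agrp*-high cells, split in the same way into 13 and 35 cells with 10.5% of genes at least 1 higher and 2.98% at least 1 lower, all 12 genes had positive differences (0.14 to 1.61), and 7 reached 1. The 13 all bore numbers from 1 to 66, while the 35 included every *Agrp*-high cell with a higher number. This split therefore also follows cell number, and the part of cell number in it was not tested.

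Ranked in the same way, the 12 genes with the largest negative differences included *Slc32a1* and were less even. *Dlk1*, an imprinted ligand of the Notch family, ranged from -0.91 to 10.11 log2RPM in *Slc17a6*-positive cells (median 3.79) and from 0.91 to 11.47 in *Slc17a6*-negative cells (median 7.97). Its means were 4.63 ± 3.29 and 7.49 ± 2.40, and the difference of -2.86 was -3.11 without the 8 cells and -3.26, -3.86 and -2.32 by range. The retinoic acid binding protein *Crabp1* averaged 3.85 ± 3.51 and 6.23 ± 4.54 (difference -2.39, or -3.22 without the 8). The others were *Zdhhc1* (-2.30), the nucleoside transporter *Slc29a1* (-1.996), the carboxypeptidase *Cpq* (-1.87), *Tmem176b* (-1.82), the calcium sensor *Kcnip3* (-1.80), *Kiz* (-1.74), *Btg2* (-1.73), *Ifrd1* (-1.72) and the small heat shock protein *Hspb1* (-1.70). Without the 8 cells 9 of the 12 still reached -1, *Ifrd1* and *Hspb1* were at -0.58 and -0.20, and *Btg2* was at 0.22. For cells 1 to 66 only 7 of the 12 were negative.

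**Figure D3:**
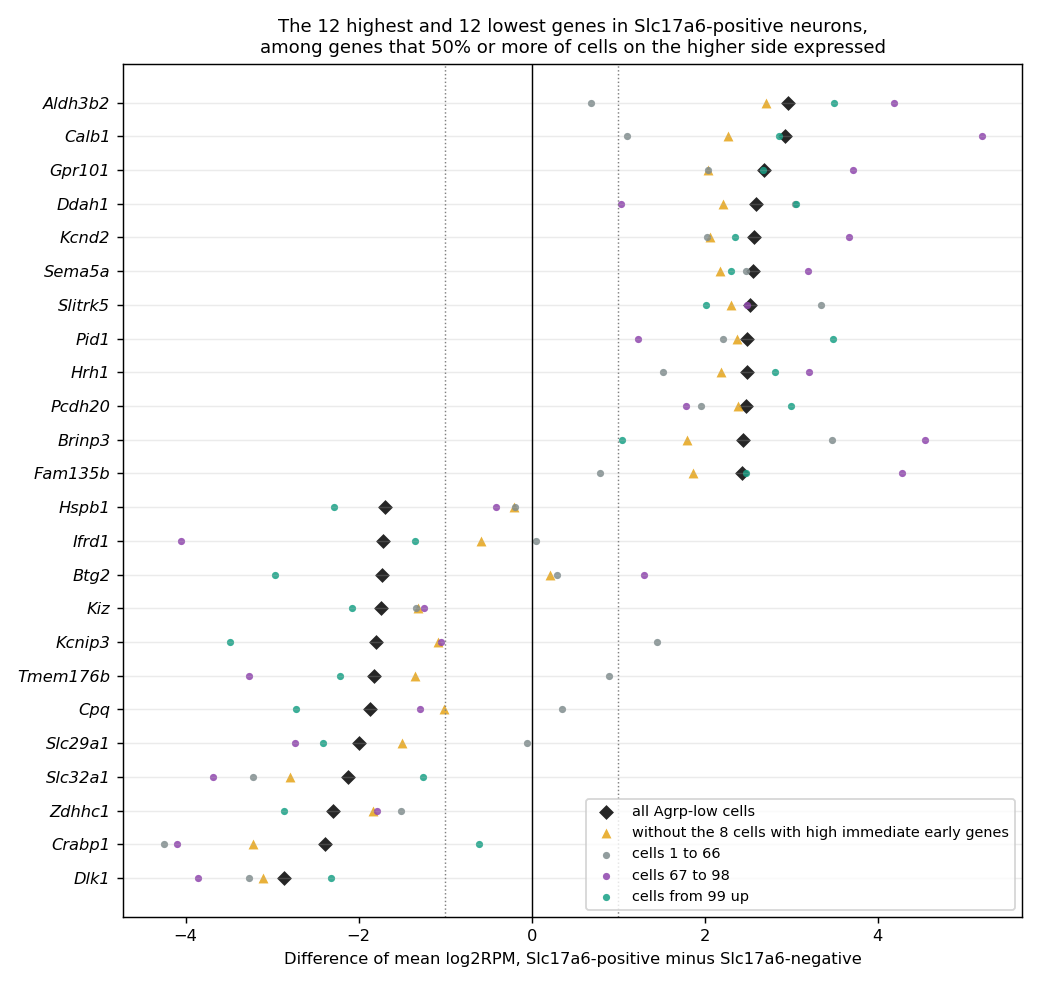
Difference of mean log2RPM, *Slc17a6*-positive minus *Slc17a6*-negative, for the 12 highest and the 12 lowest genes, among those that 50% or more of the cells on the higher side expressed, over all *Agrp*-low cells (black diamonds), without the 8 cells with high immediate early genes (orange triangles) and within cells 1 to 66, 67 to 98 and from 99 up (circles). The 12 upper genes, chosen over the same cells, lie above 0 in all of these, whereas *Btg2* is at 0.22 without the 8 cells.

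Among secreted signals, *Bdnf*, a growth factor with roles in feeding and synaptic plasticity, ranged from -0.91 to 10.68 log2RPM in *Slc17a6*-positive cells (median 0.80) and from -0.91 to 8.84 in *Slc17a6*-negative cells (median -0.84). It was expressed in 27 of 73 and 3 of 42 cells, and the difference of 2.16 was 2.22 without the 8 and 2.87, 1.55 and 1.95 by range. Below the median *Pomc*, *Bdnf* differed by 3.19, and at or above it by 1.20 (3.54 and 0.71 without the 8). *Tac2*, the precursor of neurokinin B, was expressed in 23 and 10 cells (1.13, or 1.06 without the 8). None of these bore a number from 1 to 66, 3 and 0 bore one from 67 to 98 (difference 0.75) and 20 and 10 one from 99 up (3.58). *Adcyap1*, the precursor of PACAP, was expressed in 17 and 4 cells (1.01, or 0.76). *Pnoc*, the precursor of nociceptin, was expressed in 24 and 20 cells and was lower (-1.33, or -1.95 without the 8). Thus 3 of 19 measured peptides and growth factors were higher and 1 was lower, beside 7.38% and 1.89% of all genes. The *Adcyap1* difference was -1.12 for cells 67 to 98. Without the 8 cells 2 were higher and 3 lower, the opioid precursor *Penk* (-1.08) and somatostatin, *Sst* (-1.01), beside *Pnoc*. With all cells, *Penk* differed by -1.14, 0.996 and -1.77 by range, and *Sst* by -0.098, -4.24 and 0.94. *Pnoc* differed by -1.59, -2.93 and -0.66.

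Genes of synaptic adhesion and axon guidance stood highest among the larger lists. Of 38 measured, 17 were at least 1 higher and 1 was lower, with a median of 0.96, beside 7.38% and 1.89% of all genes. Without the 8 cells 15 were higher and 2 lower with a median of 0.77, beside 4.93% and 1.76% of all genes. The cadherin *Cdh12* was expressed in 33 of 73 *Slc17a6*-positive and 8 of 42 *Slc17a6*-negative cells (difference 2.19), the teneurin *Tenm2* in 67 and 28 (1.82), and the leucine-rich repeat proteins *Lrrtm4* in 38 and 10 (1.77) and *Lrrtm2* in 63 and 23 (1.75). Without the 8 cells these 4 differed by 1.94, 1.30, 1.36 and 1.05. *Flrt1*, a member of a related family, was the lower one (-1.48, or -1.18 without the 8, expressed in 13 and 20 cells). The list median stayed between 0.69 and 0.89 in the 3 ranges and was 0.72 in *Agrp*-high cells, where the median over all genes was 0.10. As given above, the split of *Agrp*-high cells also follows cell number.

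Counts of higher genes in most of the other neuronal lists were smaller without the 8 cells. Over all genes 7.38% were at least 1 higher and 1.89% at least 1 lower, or 4.93% and 1.76% without the 8. A count near these shares is not a trait of its list. Of 42 voltage-gated channel genes 12 were higher with all cells and 5 without the 8, with medians of 0.60 and 0.39. Of 18 GABA and glycine receptor genes 4 were higher with all cells and 0 without the 8, with medians of 0.79 and 0.06, and *Gabra3*, the highest, differed by 1.57 and 0.63. Of 21 glutamate receptor genes 4 were higher, led by the metabotropic receptor *Grm5* (1.73, or 1.11 without the 8), against 3 higher and 1 lower without the 8. Of 29 receptors of peptides, opioids and amines 7 were higher with all cells and 3 without the 8. Of 26 hormone and metabolic receptors 3 were higher with all cells and 1 without the 8, and *Pgr*, the progesterone receptor, differed by 1.18 and 0.68. Of 14 housekeeping and pan-neuronal genes 6 were higher with a median of 0.74, against 2 and 0.24 without the 8. The part of the low neuronal mRNA of the 8 cells in these lists was not tested beyond leaving them out. *Slc17a6*-positive cells with low *Stmn2* were not left out. Of 14 genes typical of AgRP neurons only *Acvr1c* was higher (1.55, or 1.52 without the 8) and none was lower, against 1 lower, *Sst*, without the 8. The sign of *Sst* was not the same in all ranges of cell numbers. Of 36 genes of vesicle release 4 were higher, among them *Cplx1* (1.65) and *Syn1* (1.49), which differed by 1.32 and 0.69 without the 8.

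**Figure D4:**
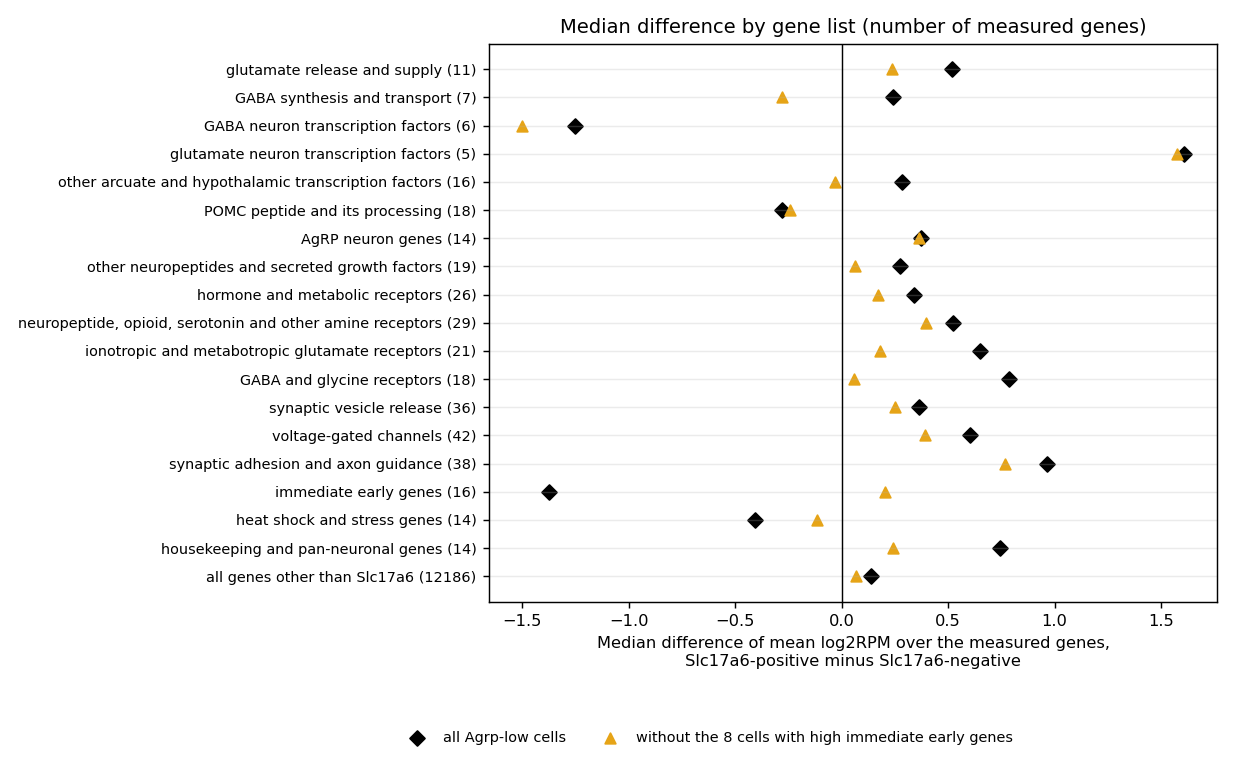
Median difference of mean log2RPM (*Slc17a6*-positive minus *Slc17a6*-negative) over the measured genes of each list, with their number in brackets, for all *Agrp*-low cells (black diamonds) and without the 8 cells with high immediate early genes (orange triangles). Without those cells the immediate early genes, by which they were chosen, move to 0.21 and the GABA receptors to 0.06. The adhesion genes are then at 0.77 and the factors listed for glutamatergic neurons at 1.57.

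The immediate early genes were lower on the *Slc17a6*-positive side, but only with the 8 cells included. The 8 cells were set apart by these same genes, so the change without them follows from that choice. Of 16 measured, 10 were at least 1 lower with a median of -1.37, and without the 8 cells 0 were lower, 1 was higher and the median was 0.21. Over all genes 1.89% were at least 1 lower, and without the 8 cells 1.76% were lower and 4.93% higher. *Nr4a1*, a nuclear receptor induced by activity, ranged from -0.91 to 7.41 log2RPM in *Slc17a6*-positive cells (median -0.71) and from -0.91 to 12.42 in *Slc17a6*-negative cells (median 0.11). Its difference was -1.88, and 0.13 without the 8, in which it was 7.66 to 12.42. *Btg2*, an antiproliferative gene of the early response, ranged from -0.91 to 6.97 in *Slc17a6*-positive cells and from -0.91 to 13.77 in *Slc17a6*-negative cells, with 11.57 to 13.77 in the 8. *Hspa1a* and *Dnajb1*, heat shock genes, differed by -1.57 and -1.29 with all cells, and by -0.01 and 0.0036 without the 8.

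*Nr4a1* and *Btg2* belong to the immediate early genes by which the 8 cells were set apart, and their promoters are shown as examples of that list, 250 bases before to 50 bases after the start of the gene (RefSeq, GRCm38.p6, 5′ to 3′ on the gene's strand). Capitals mark TGACG on either strand (CGTCA where it lies on the reverse strand), the core of the cAMP response element, and neighbouring matches overlap in *Btg2*.
*Nr4a1*, chr15:101266596-101266895 (+): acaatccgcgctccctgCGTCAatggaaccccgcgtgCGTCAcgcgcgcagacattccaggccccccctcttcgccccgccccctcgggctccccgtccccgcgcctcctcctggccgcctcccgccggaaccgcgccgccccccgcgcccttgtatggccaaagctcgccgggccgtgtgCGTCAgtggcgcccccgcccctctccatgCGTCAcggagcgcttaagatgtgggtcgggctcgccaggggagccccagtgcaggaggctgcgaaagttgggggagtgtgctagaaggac
*Btg2*, chr1:134079106-134079405 (-): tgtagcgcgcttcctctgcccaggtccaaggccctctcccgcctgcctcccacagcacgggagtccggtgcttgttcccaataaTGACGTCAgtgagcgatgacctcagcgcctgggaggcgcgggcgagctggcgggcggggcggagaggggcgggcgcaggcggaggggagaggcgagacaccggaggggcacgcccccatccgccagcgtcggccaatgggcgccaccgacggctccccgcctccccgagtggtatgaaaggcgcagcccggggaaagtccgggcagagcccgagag
There were 4 matches in *Nr4a1* and 2 in *Btg2*. The letters were found in at least 1 window of 10 of the 13 measured immediate early genes with a window. They were found in 20.8% of 32851 single windows of this length. The first is counted by gene and the second by window, so these shares cannot be compared directly. A match is a description of the sequence, not of binding.

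Over the 73 and 42 cells together, the genes most like *Slc17a6* by Spearman's rho were the calmodulin-binding *Nrgn* (0.55), *Wbscr17* (0.51), *Sox14* (0.50), *Lhx5* (0.50), *Cdh12* (0.50), *Slitrk5* (0.49), *Ano5* (0.48), *Lgi2* (0.48), *Pcdh20* (0.47) and *Aldh3b2* (0.47). The lowest were *Itm2b* (-0.52), *Tmem176b* (-0.50), *Npc2* (-0.46), *Tmem176a* (-0.45) and *Saraf* (-0.43). These are descriptions over cells of 1 sample, in which *Slc17a6* also ran with the number of expressed genes per cell (0.34) but not with depth (0.0016). Within the 73 *Slc17a6*-positive cells, *Slc17a6* had a rho of -0.24 with *Gad1*, -0.21 with *Gad2*, 0.12 with *Nhlh2* and -0.26 with *Pomc*. *Nrgn* was expressed in 49 of 73 *Slc17a6*-positive and 12 of 42 *Slc17a6*-negative cells.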

How the data were processed

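Single-cell RNA-seq values of 163 sorted neurons were analysed, 1 library per cell, of which 115 had *Agrp* below 10 log2RPM. Per the labels and the paper, the authors aligned single-end reads to GRCm38 with TopHat2 2.0.11 after CASAVA 1.7, obtained gene counts from Cufflinks 2.2.1, and used edgeR and limma for normalization and batch correction (versions not given in the sources used here). The values were deposited by the authors on a log2 scale (log2RPM) for 12187 genes, each at 5 RPM or more in at least 7 cells. Which batches were corrected is not given in the sources used here. Low values still lay on the steps of whole reads in each cell, and 99.3% of values of 1 to 20 reads came within 0.1 of a whole read, from which depth was taken (1.46 to 41.9 M reads per cell). Detection at 5 RPM rests on fewest reads in the smallest libraries.

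Cells were split as described, and differences are those of mean log2RPM over cells. Scripts ran under Python 3.11.15 (pandas 2.3.3, numpy 2.4.6, matplotlib 3.10.9, scipy 1.17.1), and were tested on simulated data. As all cells form 1 labelled sample, no test was run. Positions are those of the deposited file on GRCm38, counted from 1. Named genes were the transmitter genes and peptides, the 12 largest differences in each direction among genes that 50% or more of the cells on the higher side expressed, the 10 highest and 5 lowest Spearman correlations with *Slc17a6* among genes expressed in at least 10% of cells, and in each of 18 gene lists the 4 largest differences. Other members named as examples (*Dlx6*, *Flrt1*, *Nr4a2*, *Penk*, *Sst*) and the marker genes were named after their values were seen. The groups, lists and rules were chosen with earlier results of these data known. Alternatives were *Slc17a6* limits of 1 and 10 RPM, *Agrp* limits of 8 and 6 log2RPM, other pseudocounts, detection limits of 1 and 10 RPM, rescaling, thinning to 3.7 M reads, ranges of cell number, *Pomc* above or below its median, and leaving out cells with markers of another cell type. Leaving out the 8 cells with high immediate early genes (mean above 4 log2RPM), doing so within cells at or above the median *Pomc*, and setting cells at 100 RPM or more against those below 5 RPM were chosen after the values were seen. Some genes that the rule names are not reported here.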

Additional observations from a re-analysis of the deposited data

How the results depend on the processing

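The split by *Slc17a6* has no replicate, so no call rests on a test. No paired analysis was possible because all cells share 1 label. Of 84 named genes at least 1 higher or lower, all 84 kept their direction with an *Slc17a6* limit of 10 RPM, either *Agrp* limit, thinning, rescaling and the added comparison of cells at 100 RPM or more with those below 5 RPM. Without the 8 cells with high immediate early genes 79 kept it and 53 still reached 1. In the added comparison at or above the median *Pomc* without these cells, 65 kept it and 33 reached 1. Rescaling moved the median of all genes by -0.10. The *Gad1* difference became -0.32 from cell 99 up and 0.077 at or above the median *Pomc*. That of *Pomc* became 1.05 with a limit of 10 RPM and 2.49 for cells 67 to 98. The share of *Slc17a6*-positive cells expressing *Gad1* was 97.3% at a detection limit of 1 RPM, 79.5% at 10 RPM and 96.0% for cells 1 to 66.

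The percent of genes at least 1 higher and the percent of genes at least 1 lower were 17.5% and 3.68% with an *Slc17a6* limit of 1 RPM, 20.8% and 3.87% with cells of 1 to 20 RPM left out, 0.952% and 0.542% as log2(RPM + 5), and 13.6% and 3.06% with the lowest value subtracted. They were 11.99% and 4.17% below and 15.6% and 7.29% at or above the median *Pomc*, 15.3% and 8.35% for cells 1 to 66, 18.8% and 13.4% for cells 67 to 98, 16.6% and 5.10% from cell 99 up, and 13.01% and 3.14% as medians over cells. At or above the median *Pomc* without the 8 cells, 6.98% were lower. The larger shares came with fewer cells in most of these settings.

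Signs turned for the following genes, and the cause was not tested. Cells 1 to 66 gave *Cpq* 0.35, *Tmem176b* 0.89, *Kcnip3* 1.45, *Btg2* 0.30, *Ifrd1* 0.0503, *Tmem176a* 1.23, *Sox3* -0.0473, *Nkx2-1* -0.0845, *Pgr* -0.28, *Gabra5* -0.11, *Erc2* -0.77, *Scn2a1* -0.15, *Egr1* 0.26, *Arc* 0.0845, *Hspa1a* 0.051, *Ddit3* 0.56, *Dnajb1* 0.19 and *Stmn2* -0.11. Cells 67 to 98 gave *Btg2* 1.29, *Calcr* -1.02, *Adcyap1* -1.12, *Hcrtr2* -1.25, *Oprl1* -1.35, *Gria3* -1.22, *Grik1* -0.54, *Cplx1* -0.0086, *Hspa1a* 0.12, *Dnajb1* 0.42 and *Nefl* -0.62. Cells at or above the median *Pomc* gave *Gad2* 0.43, *Adcyap1* -0.32, *Grin3a* -0.29 and *Vamp1* -0.62. The same cells without the 8 gave *Gpr101* -0.52, *Btg2* 0.31, *Hspb1* 0.39, *Tcf7l2* 0.24, *Adcyap1* -1.05, *Hcrtr2* -0.12, *Cnr1* -0.67, *Oprl1* -0.11, *Gria3* -0.48, *Grin3a* -0.52, *Glra3* -0.11, *Cplx1* -0.15, *Vamp1* -1.06, *Scn2a1* -0.0859, *Kcnj3* -0.36, *Nr4a1* 0.23, *Arc* 0.10, *Hspa1a* 0.51 and *Dnajb1* 0.50. An *Slc17a6* limit of 1 RPM gave *Btg2* 0.45, *Vamp1* -0.50, *Nr4a1* 0.0603, *Egr1* 0.69 and *Dnajb1* 0.13. All cells without the 8 gave *Btg2* 0.22, *Nr4a1* 0.13, *Egr1* 0.19, *Arc* 0.10 and *Dnajb1* 0.0036. Leaving out cells of 1 to 20 RPM gave *Vamp1* -0.0102.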

Other observations

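The 12 genes lowest in *Slc17a6*-positive *Agrp*-low cells did not show that order in *Agrp*-high cells, where the split by *Slc17a6* gave 3 negative differences of 12, none of them as large as 1. *Dlk1* was 0.52 higher in the 13 *Slc17a6*-positive than in the 35 *Slc17a6*-negative *Agrp*-high cells, and all 48 expressed it. The 13 all bore cell numbers from 1 to 66, whereas the 35 came from all ranges. The part of cell number in these differences was not tested. *Gad1* was expressed in all 48 *Agrp*-high cells (100%, exact Clopper-Pearson 95% interval 92.6% to 100%) and reached 100 RPM in each. Of the 34 *Slc17a6*-negative *Agrp*-low cells without high immediate early genes, 34 expressed *Gad1*, 32 also *Gad2*, and 20 expressed both together with *Slc32a1*. Whether the difference between *Agrp*-low and *Agrp*-high cells exceeds that between animals was not tested, as no animal is named.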
